A study of Mus musculus with 16 samples.

Results

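Acetylated RNA was examined on 10 transcripts of the circadian clock and its output arm in mouse liver: Nfil3, Cry1, Cry2, Per1, Per2, Per3, Clock, Arntl, Hlf and Dbp. They were selected on called peaks in these data, and their rows were taken by gene symbol from peak lists in which 8602 genes had a peak. Of the 10 genes, 8 had at least 1 peak in some mouse, while Arntl and Dbp had none in any list under their symbol or gene identifier. Livers came from male db/db mice, a leptin receptor mutant with obesity and diabetes, and from male lean controls of strain C57BL/6. All were kept on a 12-hour light and dark cycle with free access to food. Age and the hour at which livers were taken are not given in the sources used here, nor is it said whether the controls were littermates. RNA was immunoprecipitated with an antibody against N4-acetylcytidine (ac4C), an acetylated form of cytidine made in RNA by NAT10. There are 4 peak lists of db/db mice (db1, db2, db4 and db5) and 4 of lean mice (C5, C6, C7 and C8).

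The clock runs as a feedback loop. CLOCK and its partner BMAL1, the product of Arntl, switch on the Period and Cryptochrome genes, whose proteins then repress that pair. A second arm reads out the loop through short DNA elements called D-boxes: DBP and HLF, factors of the PAR bZIP family, activate genes there, and NFIL3 (also called E4BP4) represses them. In liver this arm times enzymes of bile acid, drug and lipid handling, and many of its transcripts swing in level over the day.

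The measured values that chose the 10 genes were the presence and absence of their peaks in these 8 lists, so those values are given as a description and carry no test. Absence of a peak means that the authors' caller reported none there, which depends on transcript level and depth as well as on acetylation. In RNA of whole liver, fewer cells of a type and less RNA per cell cannot be told apart. The false discovery rate beside each of the 96 peaks on these genes was 100%, as it was beside 99.21% of all 68356 peaks, so a single call is weak evidence of a site.

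Part of the called regions on these genes sat at the 5′ end of the transcript. Peaks that shared at least 1 bp were merged into 38 regions. Start sites from RefSeq (GRCm38.p6) were listed for 9 of the 10 genes, Per2 being the exception, and for 7 of the 8 genes with a peak. Of these 7 genes, 6 had a peak on a window from 250 bases before to 50 bases after a start site: Nfil3, Per3, Clock, Cry1, Cry2 and Hlf. Over all genes with a start site listed, 3091 of 6620 had such a peak (46.7%). By region, 7 of the 27 on the listed genes touched a start window, where 15.8% of all regions on listed genes did. By peak it was 26 of 73, 12 of the 26 on Clock alone, where 20.3% of all peaks on listed genes did.

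The sequences below run from 250 bases before the start site to its first 30 bases, 5′ to 3′ on the strand of the gene, and are shown because the recurrent 5′ regions of Nfil3, Per3 and Clock begin there. Capitals at the 3′ end mark bases inside a called region. Isolated capitals further upstream mark matches to the motifs named after the sequences. The build is GRCm38.p6 and all of these genes lie on the minus strand. The windows are chr13:52981010-52981289 for Nfil3, chr4:151044636-151044915 for Per3, and chr5:76304519-76304798 and chr5:76303473-76303752 for 2 of the listed starts of Clock; a further one, at 76304792, carried no called region.
Nfil3: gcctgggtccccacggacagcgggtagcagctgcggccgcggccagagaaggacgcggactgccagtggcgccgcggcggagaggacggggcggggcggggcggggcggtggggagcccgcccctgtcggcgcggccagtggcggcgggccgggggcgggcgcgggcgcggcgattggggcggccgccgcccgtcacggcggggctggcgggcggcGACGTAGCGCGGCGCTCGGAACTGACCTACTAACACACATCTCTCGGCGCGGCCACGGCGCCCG
Per3: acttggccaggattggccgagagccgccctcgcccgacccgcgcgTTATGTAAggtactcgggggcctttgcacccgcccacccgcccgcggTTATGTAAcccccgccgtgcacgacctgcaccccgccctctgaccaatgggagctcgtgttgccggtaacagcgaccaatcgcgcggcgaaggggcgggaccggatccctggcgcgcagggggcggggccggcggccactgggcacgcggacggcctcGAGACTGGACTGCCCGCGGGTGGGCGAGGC
Clock, start at 76304548: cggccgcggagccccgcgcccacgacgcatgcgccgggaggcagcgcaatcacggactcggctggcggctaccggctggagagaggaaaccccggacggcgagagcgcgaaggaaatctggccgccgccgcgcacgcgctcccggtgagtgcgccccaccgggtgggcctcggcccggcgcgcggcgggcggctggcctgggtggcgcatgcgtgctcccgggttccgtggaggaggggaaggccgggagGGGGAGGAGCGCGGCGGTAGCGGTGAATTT
Clock, start at 76303502: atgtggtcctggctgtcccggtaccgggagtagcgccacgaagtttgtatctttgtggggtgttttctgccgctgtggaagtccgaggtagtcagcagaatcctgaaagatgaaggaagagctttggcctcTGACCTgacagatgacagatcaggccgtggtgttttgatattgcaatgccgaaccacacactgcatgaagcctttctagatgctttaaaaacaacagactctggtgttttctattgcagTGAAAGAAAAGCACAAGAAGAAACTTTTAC
In Nfil3 the called region opened at position -34, upstream of the listed start. In Per3 and at both Clock starts shown it opened exactly at the start site, as it did in Cry2 for C6 and C7. The Cry2 peaks of db2 and db4 opened further in, at 92434053 and 92434064, where the start is at 92434069. Of the 26 peaks of these genes on a start window, 18 had their 5′ bound exactly at a start site, against 52.5% of the 10965 such peaks in the lists. The bases just before the start at 76303502 read ag, the pair found at the 3′ end of most introns. Bounds thus follow annotated transcript edges in part, and how far a region extends beyond the modified bases is not in the lists.

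Cytidine content at the start differed among these genes. The first 50 bases of Nfil3 were 50% cytidine, against a median of 26% over 32851 start windows. They held 3 CCG triplets and a run of CXX repeats, a pattern linked to ac4C in human cells. The CXX run, a C and any 2 bases 4 times in a row, was searched on the transcribed strand and occurred in 21.1% of windows, and CCG in 42.4%. Per3 had 26% cytidine and 1 CCG triplet. The first 50 bases at both Clock starts shown had 12% cytidine and neither motif. The regions called there were 79 bp wide at 76303502 and 181 bp wide at 76304548. Bases of a called region past the first 50 were not searched, for these or the other genes. The motifs also stood at starts without a called region: the Clock start at 76304792 had 40% cytidine, a CXX run and 2 CCG triplets, and the Per1 start at 69100152 had 38%, a CXX run and 1 CCG triplet. Among the other genes with a called 5′ region, Cry1 had 38%, Hlf 32% and Cry2 28%, with 3, 1 and 1 CCG triplets and no CXX run.

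Clock-related promoter motifs were searched on both strands of the 300-base windows, overlaps with other motifs allowed. The D-box was taken as TTATGTAA, TTACGTAA or TTGCGTAA and their reverse complements, and stood in 1.22% of all windows. Per3 held it at positions -205 and -158, the capitals upstream in its sequence, and none of the other windows of these genes held it. The E-box CACGTG, bound by CLOCK with BMAL1, stood in 7.15% of windows, and here in Cry1 at -60 and in Per1 at -166. The RORE core AGGTCA (16.3% of windows) was read as its complement TGACCT in Nfil3 at -12, inside its called region, in Clock at -119 and in Per1 at -137, and as AGGTCA in Arntl at 31. The cyclic AMP element TGACGTCA (1.79%) was found in Hlf at -9. These are matches of letters and say nothing of binding.

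Nfil3, the repressor of D-box genes, had a peak in all 4 db/db mice and in no lean mouse. The peak had the same bounds in each list, chr13:52980861-52981073, 213 bp wide, inside the gene (52967209 to 52982878) and annotated by the authors to an Ensembl transcript. The fold enrichment, the authors' linear ratio of immunoprecipitate to background, was 11.24 in db1, 4.76 in db2, 6.49 in db4 and 7.20 in db5, with no peak in C5, C6, C7 or C8. Within their own lists these folds stood above those of 96.8%, 64.2%, 85.2% and 88.6% of peaks. The groups did not overlap in presence. Such a 4 against 0 pattern was found in 81 genes, 0.942% of those with a peak, and in 217 regions, 0.853%. The opposite pattern, 0 against 4, was found in none of the 10 genes and none of their 38 regions, against 0.674% of all genes and 0.708% of all regions.

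The calls on Nfil3 were unequal in strength. The authors' score, 10 times the negative log10 of its p-value, was 149.58 in db1, 61.73 in db2, 16.99 in db4 and 50.11 in db5. The db4 score was near the floor of the lists, 13.02, and only 18.4% of peaks in db4 scored lower. With equal numbers of peaks per list, or a score of at least 50, the db4 peak dropped out and Nfil3 stood at 3 db/db mice and none.

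Genes whose pattern was most like that of Nfil3 were sought among the 81 with the same presence in all 8 lists, by the distance of log2 folds over the 4 db/db lists. The nearest of 77 genes, leaving out predicted ones, were Mapre1, a microtubule end-binding protein (distance 1.04), Zfp608, a zinc finger protein (1.17), Nr5a2, a nuclear receptor of bile acid synthesis (1.20), and Mphosph6 (1.28), level with Sulf2 (1.28). The lowest fold of Nfil3 over the db/db lists, 4.76, was reached or passed by the lowest fold of 2 of the other 80 genes.

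**Figure D1:**
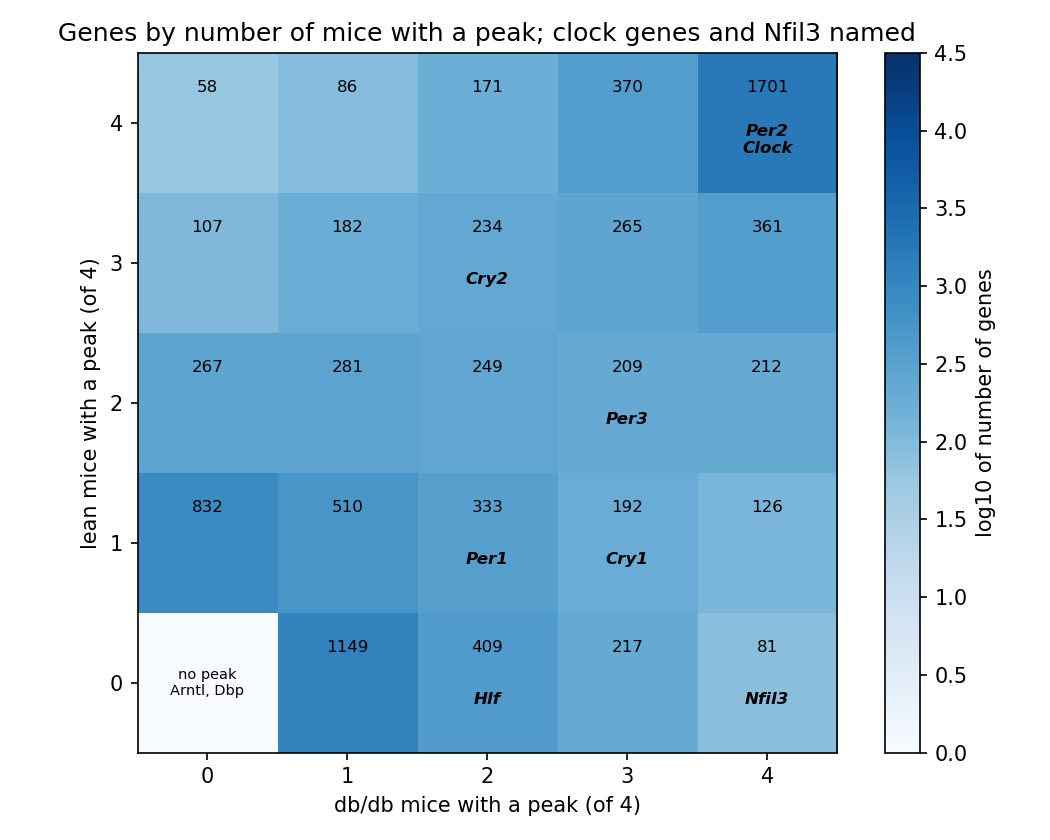
Number of genes at each combination of db/db mice (horizontal axis, of 4) and lean mice (vertical axis, of 4) with a peak, shaded by the log10 of that number, with the clock genes and Nfil3 written in their squares. Nfil3 is in the square of 81 genes at 4 against 0, and Clock and Per2 are among the 1701 genes with a peak in all 8 mice.

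On the activating side of the loop, Clock was called in every mouse, with fewer peaks in db/db livers. Clock, which encodes a DNA-binding activator with acetyltransferase activity, had 3, 3, 6 and 3 peaks in db1, db2, db4 and db5, against 5, 6, 8 and 7 in C5, C6, C7 and C8. The means were 3.75 ± 1.5 in db/db and 6.5 ± 1.29 in lean mice (SD, n = 4 each), and the groups overlapped only through db4. Clock was one of 1701 genes (19.8%) with a peak in all 8 mice. Its 41 peaks fell into 10 regions, of which 2 were called in more db/db mice, 7 in more lean mice and 1 in equal numbers. Over all regions, 47.0% were called in more db/db and 36.7% in more lean mice.

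The region of Clock shared by all 8 mice lay toward its 3′ end, chr5:76226933-76227227, and was the only 1 of the 38 regions to be so shared (6.21% over all regions). Folds there were 7.98, 4.48, 6.31 and 2.78 in db1, db2, db4 and db5, and 7.96, 7.34, 7.77 and 11.32 in C5, C6, C7 and C8. Within the db/db lists it ranked above 92.5%, 58.8%, 84.5% and 10.7% of peaks by fold, and within the lean lists above 90.6%, 87.7%, 90.7% and 96.4%. The db5 value was thus among the weaker peaks of its own list, while all 4 lean values were in the upper part of theirs. Folds of different lists are shown side by side without a comparison of groups.

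Of the body of Clock, 2 regions were called in 1 db/db mouse and all 4 lean mice. The first, chr5:76273959-76274043, was called in db4 at a fold of 3.10, against 7.69, 5.34, 3.62 and 2.68 in C5, C6, C7 and C8. The second, chr5:76235541-76235855, was called in db4 at 2.34, against 4.38, 3.93, 4.76 and 4.42 in the lean lists. In both the only db/db mouse was db4, the longest list (9754 peaks). Another region, chr5:76237021-76237162, was called in db5 at 2.90, against 3.21, 5.77 and 3.55 in C6, C7 and C8. A further one, chr5:76265791-76265939, had no db/db peak and folds of 3.29 in C5 and 4.22 in C7. Over all regions 10.9% were called in at least 2 more lean mice. At 76273959 the scores in db4, C7 and C8 were 14.01, 14.14 and 15.65, near the floor of 13.02. With scores under 50 dropped, its difference went from -75 to -25 percentage points, while that at 76235541 stayed at -75. Under the same limit the difference at 76237021 went from -50 to -25, and that at 76265791 from -50 to 0.

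At the 5′ end of Clock, 2 regions were called in both groups. At the start at 76303502, the region chr5:76303424-76303502 was called in 3 db/db mice at folds of 6.00, 3.48 and 4.82 (db1, db4, db5), and in all 4 lean mice at 4.37, 4.04, 6.51 and 5.03. At the start at 76304548, the region chr5:76304368-76304548 was called in 3 db/db mice at 4.28, 3.60 and 3.03 (db1, db2, db4) and in 2 lean mice at 5.55 and 3.92 (C7, C8). The groups overlapped in presence at both, but with scores under 50 dropped the difference at the second turned to -50 percentage points, against 25 over all its peaks. One further region, chr5:76229358-76229563, was called in db4 at 4.14 and in C6 and C8 at 5.32 and 3.98. Arntl, whose product pairs with CLOCK, had no peak in any list.

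**Figure D2:**
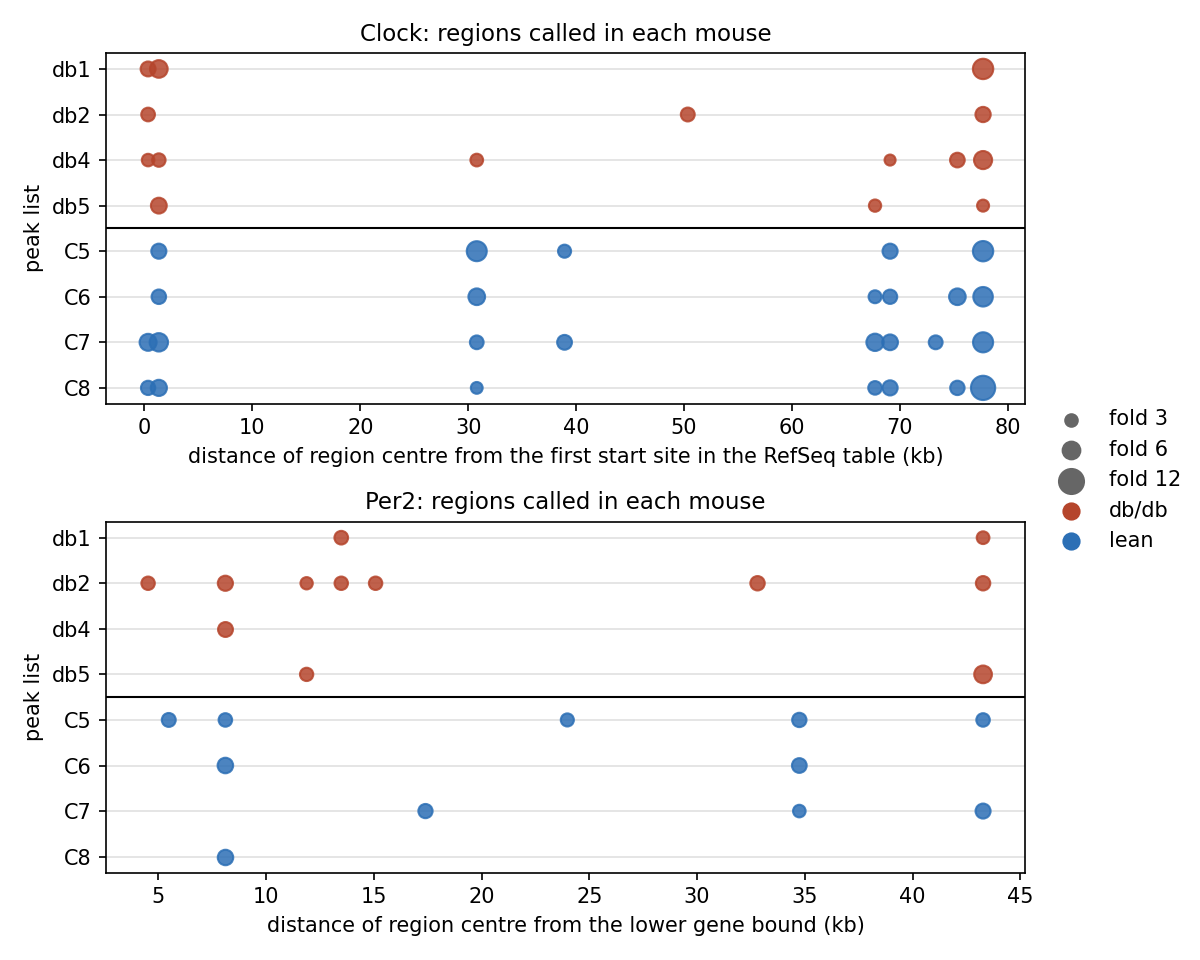
Regions called in each list along Clock (top) and Per2 (bottom), with the distance of the region's centre in kb on the horizontal axis, taken from the first listed start for Clock and from the lower gene bound for Per2, and 1 row per list, db/db above lean. Each point is a called region and its area follows the authors' fold. Of the regions in the body of Clock, 2 are called in all 4 lean lists and, among db/db lists, in db4 alone.

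Among the repressors of the loop, Per2, a core Period gene, had a peak in all 8 mice, with 2, 7, 1 and 2 peaks in db1, db2, db4 and db5, and 5, 2, 3 and 1 in C5, C6, C7 and C8. The means were 3 ± 2.71 in db/db and 2.75 ± 1.71 in lean mice (SD, n = 4 each). Without db2 the difference of 0.25 turned to -1.08, and without C8 to -0.333. The 23 peaks fell into 11 regions, of which 5 were called in db/db mice only, 4 in lean mice only and 2 in both groups. Over all regions 36.3% were in db/db mice only and 26.2% in lean mice only.

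The recurrent Per2 regions differed in which mice they were called in. The region chr1:91450605-91450843 had no db/db peak and was called in C5, C6 and C7 at folds of 3.95, 4.18 and 3.04. The regions chr1:91427739-91427978 and chr1:91429384-91429548 had no lean peak and were called in 2 db/db mice each, at 2.92 and 3.40 (db2, db5) and at 3.58 and 3.46 (db1, db2). Neither direction outlasted stricter limits: with folds under 4 dropped both db/db regions were gone and C6 alone kept the lean one, and with scores under 50 dropped no peak was left in any of them. The remaining recurrent regions were shared. That at chr1:91459173-91459330, 21 bases inside the upper gene bound, was called in 3 db/db mice at 3.11, 3.99 and 6.03 and in 2 lean mice at 3.51 and 4.34. That at chr1:91423690-91424486 was called in 2 db/db mice at 4.41 and 4.27 and in 3 lean mice at 3.52, 4.64 and 4.60.

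Per3, a Period gene that is dispensable for the core loop in mice, had peaks in 3 db/db mice (2 peaks each in db2, db4 and db5, none in db1) and in 2 lean mice (1 each in C6 and C7). Its 5′ region, chr4:151044108-151044665, was called at 3.38, 3.85 and 3.83 in db2, db4 and db5, and at 2.98 in C6. Every fold there was under 4. A region in the body of the gene, chr4:151012076-151012929, was called in db4 and db5 at 4.35 and 2.65 and in no lean mouse. Over all regions 14.3% were called in at least 2 more db/db mice.

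Per1, a Period gene induced quickly by hormonal and light cues, had peaks in db2 and db4 and in C6. The region chr11:69105390-69107069 was formed from abutting peaks that shared only a few bases. The db2 and db4 peaks, with folds of 6.22 and 4.41, had identical bounds, and the C6 peak, with a fold of 7.63, lay on the other side. The remaining Per1 peaks, at folds of 3.64 and 3.05, were in db2 alone. No other stretch of Per1 was called in both groups, and neither of its listed starts carried a peak.

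The Cryptochromes, which encode the strongest repressors of CLOCK and BMAL1, had different patterns. Cry1 was called in 3 db/db mice (1, 0, 2 and 1 peaks in db1, db2, db4 and db5) and in C5 alone among lean mice, but at different places. Of its 4 regions 3 were in db/db mice only, 1 in lean mice only and 0 in both, and 3 of the 4 were called in a single mouse. The recurrent region, chr10:85133051-85133158 near the 3′ end, was called in db1 at 4.01 and in db4 at 4.35. A 5′ region of 700 bp, chr10:85184314-85185013, was called in db4 alone at 4.97, and the lean peak, at a fold of 3.73, was elsewhere in the gene.

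Cry2 had 0, 1, 3 and 0 peaks in db1, db2, db4 and db5, and 0, 2, 1 and 1 in C5, C6, C7 and C8. It was the only one of the 10 genes called in fewer db/db than lean mice (2 against 3). Its 5′ region, chr2:92433812-92434069, was called in both groups equally, at 3.11 and 3.40 in db2 and db4 and at 2.79 and 3.43 in C6 and C7. The region chr2:92411260-92411767 was called in db4 at 5.90 and in C6 and C8 at 4.21 and 3.25. The groups overlapped in both of these, and the remaining Cry2 region, chr2:92412949-92413151, was called in db4 alone at 4.58.

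In the activators of the D-box arm, Hlf had peaks in db1 and db4 and in none of the lean lists, and Dbp had no peak. The 2 Hlf peaks did not coincide. That of db1, chr11:90390250-90390904, began 13 bases after the start site at a fold of 4.24, and that of db4, chr11:90345548-90345978, lay toward the 3′ end at 5.10. Each Hlf region was seen in 1 mouse.

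**Figure D3:**
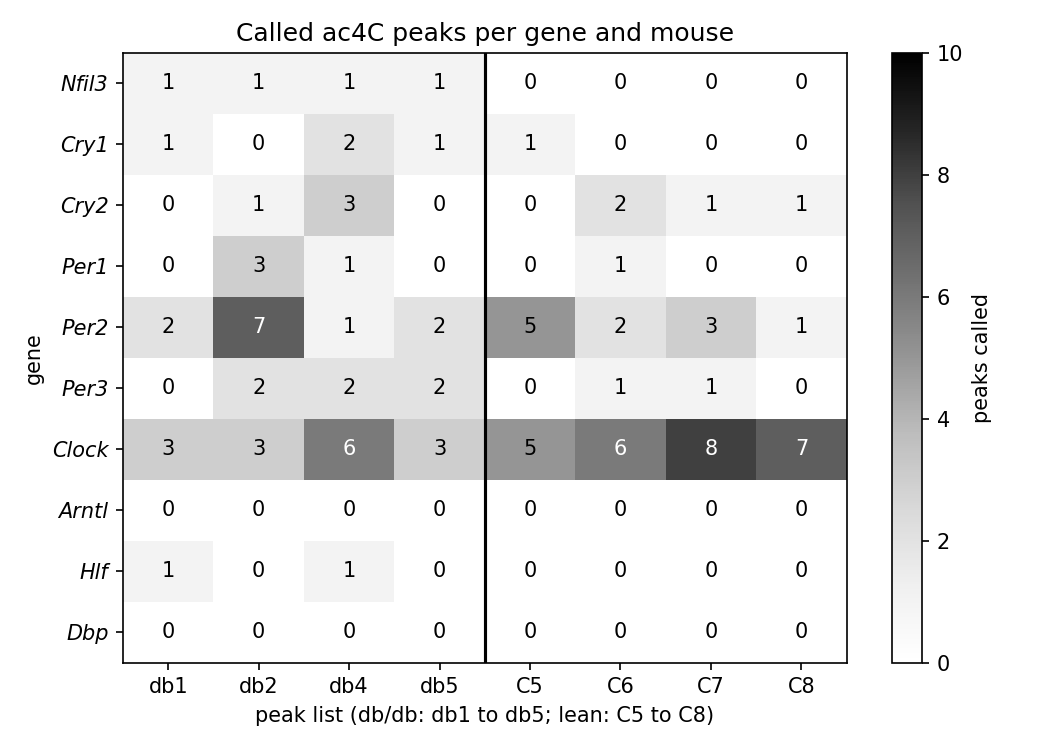
Number of called peaks for each of the 10 genes (rows) in each list (columns, db/db left of the line and lean right of it). Clock has 3 to 6 peaks in db/db and 5 to 8 in lean lists, Nfil3 has 1 in each db/db list and 0 in each lean list, and Arntl and Dbp are at 0 throughout.

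Over the set, 6 ± 1.41 of the 10 genes were called in each db/db mouse on average, against 3.75 ± 0.957 in each lean mouse (SD, n = 4 each). The counts were 5, 6, 8 and 5 in db1, db2, db4 and db5, and 3, 5, 4 and 3 in C5, C6, C7 and C8, so the groups met at 5. The db/db lists were also longer on average, with 8212 to 9754 peaks against 7583 to 8503 in lean lists, and with equal numbers of peaks per list the difference of 2.25 genes was 1.25. As a share of its list, the number of peaks on these genes was 0.0901% to 0.183% in db/db and 0.119% to 0.161% in lean mice. By gene, 5 were called in more db/db mice, 1 in more lean mice and 2 in equal numbers, where 38.2% and 30.1% of all genes were called in more db/db and more lean mice. The median difference was 1 mouse over the 8 genes with a peak and 0 over all genes.

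Of the 38 regions, 6 were called in at least 2 more db/db mice and 5 in at least 2 more lean mice, near the 14.3% and 10.9% of all regions. Leaving out a list made the groups unequal while the limit stayed at 2 mice, which by itself moves the split toward the other group. The split was 4 and 6 without db1, 3 and 6 without db2 or db5, and 3 and 9 without db4. It was 7 and 4 without C5, C6 or C8, and 8 and 3 without C7. Of the 5 regions in at least 2 more lean mice, Clock held 4 and Per2 held 1. By gene, Nfil3, Cry1 and Hlf were called in at least 2 more db/db mice, and none of the 10 in at least 2 more lean mice, against 14.4% and 10.1% of all genes. Regions called in a single mouse numbered 18 of 38, against 45.0% of all regions. No gene of the set was called in a single mouse, as 23.0% of all genes were. The median fold was 3.99 on these genes and 4.07 over all peaks, and a score of at least 50 was reached by 22.9% of their peaks and 32.0% of all. Of the 22 peaks with that score 18 were on Clock, 3 on Nfil3 and 1 on Per1. Of 20 regions called in 2 or more mice, 15 had the same bounds in each of them (70.8% over all such regions).

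**Figure D4:**
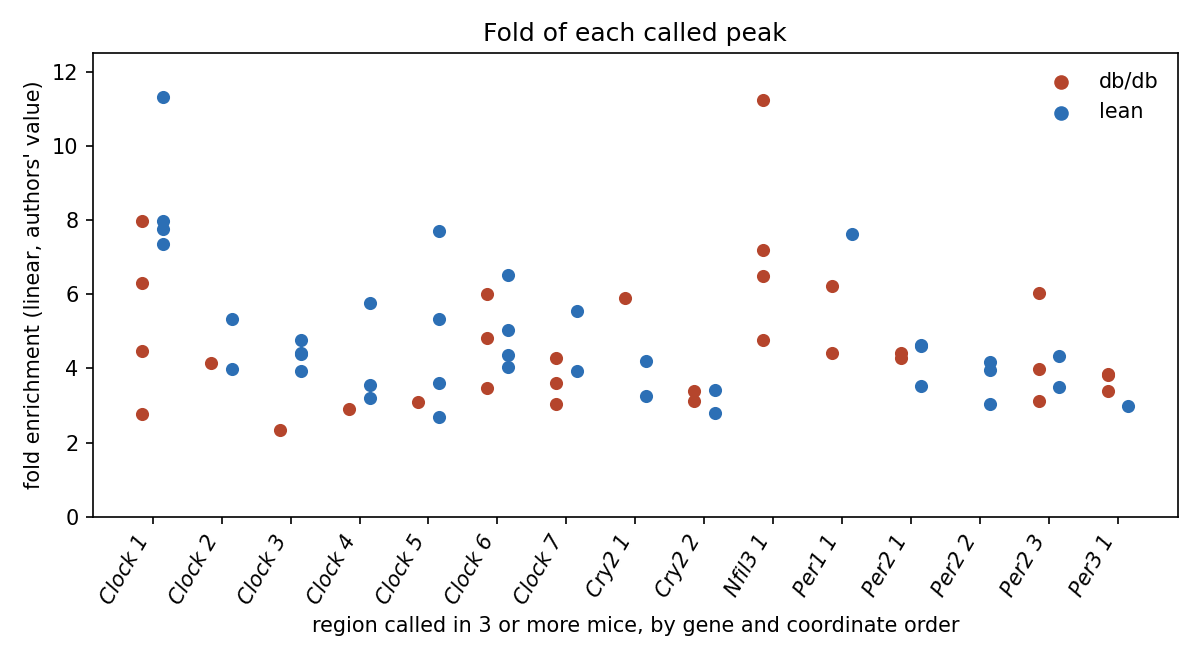
Authors' linear fold (vertical axis) of each peak in the 15 regions called in 3 or more mice, named by gene and numbered in coordinate order, db/db points left and lean points right. Nfil3 has db/db points only, from 4.76 to 11.24, and the second Per2 region has lean points only, from 3.04 to 4.18.

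Presence in 4 against 4 lists leaves little room for a test over all features. Fisher's exact test with Benjamini-Hochberg adjustment called 0 of 8602 genes and 0 of 25437 regions (0.0% each, smallest adjusted p 1.0), against 139 and 397 at an unadjusted p under 0.05. The smallest 2-sided p that this exact test can give here is 0.0286. Only those 139 genes and 397 regions reached it, too small a share of the features tested to pass the adjustment. The count of 0 thus says nothing of single genes.

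Other genes of the clock were taken from gene lists and are described in the same way, without a test. Of 12 genes of the core loop and its nuclear receptor arm, 6 had a peak. Rora, an activator at RORE elements, was called in all 8 mice, and none differed by 2 or more mice. Tef, the third PAR bZIP factor, and Ciart, a repressor of CLOCK and BMAL1, stood at 2 and 2 mice. Nr1d1 (REV-ERB alpha) was called in 1 db/db mouse and Nr1d2 in none. The number of the 12 with a peak averaged 2.75 ± 1.71 in db/db mice and 2.75 ± 1.26 in lean mice (SD, n = 4 each).

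Of 11 genes of the kinases and ubiquitin machinery that time the decay of Period and Cryptochrome proteins, 9 had a peak, on average 6.5 ± 0.577 in db/db and 5.25 ± 0.957 in lean mice (SD, n = 4 each). Csnk1d, a kinase that marks Period proteins for decay, was called in all 8 mice. Usp2, a clock-linked deubiquitinase, had a peak in 3 db/db mice at folds of 3.73 to 6.04 and none in lean livers. Btrc, a ligase for Period proteins, stood at 4 and 2 mice, and the kinase subunit Csnk2a2 at 1 and 3. Of all 8602 genes with a peak, 217 stood at 3 db/db and 0 lean mice. Over all genes, 14.4% were called in at least 2 more db/db mice and 10.1% in at least 2 more lean mice.

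Of 8 coactivator and NAD-linked genes 7 had a peak, on average 4.5 ± 1.29 in db/db and 4.5 ± 1 in lean mice (SD, n = 4 each). Crtc2, Creb1 and Ncor1 were called in all 8, Sirt1, a deacetylase that uses NAD, in 3 db/db and 1 lean mouse, and Ppargc1a in 2 and 4. Of 8 liver outputs of NFIL3 and the PAR bZIP factors, 4 had a peak, all in db/db mice: Cyp2b10 and Cyp2a5, drug-metabolising enzymes, in 3 each, Cyp7a1, the first enzyme of bile acid synthesis, in 2, and the hormone gene Fgf21 in 1. The 8 outputs were without a peak in every lean list, and averaged 2.25 ± 0.957 genes in db/db mice (SD, n = 4). Peaks in db/db mice only were seen in 21.6% of all genes with a peak, 1856 genes, of which 1149 were called in 1 db/db mouse. Of the same genes, 217 stood at 3 db/db and 0 lean mice, and 409 at 2 and 0.

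Markers of the cell types in liver were counted in the same way, and their part in the results above was not tested. Of 10 hepatocyte markers 4 had a peak, 0 to 3 per db/db and 0 to 1 per lean mouse. Hnf4a was called in 3 db/db mice and 1 lean mouse, and Cps1 in 2 db/db mice. Fgb and Ass1 were called in 1 db/db mouse each, at folds of 18.22 and 12.2. Alb, Apoa1 and Ttr were among those without a peak in any list, so the markers show the labelled tissue only in part. Of 10 lymphocyte and NK cell markers 3 had a peak, 0 to 2 per db/db and 0 to 1 per lean mouse, with Cd3e and Ncr1 at 0, while Cd74 had a peak in 3 db/db mice and in 0 lean ones, and Nkg7 in 0 db/db and 1 lean. Of the markers that follow, Timd4 (Kupffer cell) and Cdh1 (cholangiocyte) were at 0 db/db and 4 lean mice. Each was the only 1 of its list in at least 2 more lean mice, and 2 of each list went the other way. These were Marco (4 db/db and 2 lean mice) and Cd5l (2 and 0) for Kupffer cells, and Epcam and Spp1 (2 and 0 each) for cholangiocytes. Stellate cell markers stood at 3 to 5 and 0 to 3 of 10, endothelial markers at 2 to 7 and 3 to 6 of 10, Kupffer cell markers at 1 to 2 and 1 to 3 of 10, and cholangiocyte markers at 2 to 4 and 2 to 3 of 8.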

How the data were processed

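Per the labels' protocols, ribosomal RNA was removed from liver RNA, which was broken to about 200 nt, immunoprecipitated and made into strand-keeping libraries. The submitters' processing notes name cutadapt 1.9.3, HISAT2 2.0.4 and the build mm10. Peak names deposited by the authors start with MACS; its version, its control and any pooling are not given in the sources used here. In all 68356 rows the score deposited by the authors is 10 times the −log10 of the p-value beside it. The fold enrichment deposited by the authors is a linear ratio, at least 2. Each peak has a false discovery rate, which the authors gave as a percent. Depth is unknown, since the lists hold no reads.

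Lists were mapped to groups by name (db, and C as the only other group) and not to numbered samples. The labels do not say that samples are separate animals, so lists are called mice by convention. Starts are printed 1-based, and widths were taken from the bounds. Peaks were merged in Python 3.11.15 (pandas 2.3.3), where they shared at least 1 bp across all 8 lists, and the merging and Fisher's exact test (SciPy 1.17.1) were tested on simulated data. The genes and gene lists were chosen with earlier results of these data known. Genes of the other lists were named where the groups differed by at least 2 mice or all 8 lists had a peak, and further ones after their values had been seen; some listed genes are not reported here. The lists carry no strand, and no other gene was annotated in a region of the set. Alternatives were a fold of at least 4, a score of at least 50, equal numbers of peaks, other merging and leaving out each list.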

Additional observations from a re-analysis of the deposited data

Results flagged for a closer look

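A mouse stood far from the other 3 of its group in 12 of 56 groups of values checked. Many of these are small whole numbers, where a step of 1 is enough, so the usual rate of about 1 group in 20 does not hold for them. Groups of equal values, which cannot be flagged, were counted too. The number flagged thus does not show an excess. The db4 list had 6 Clock peaks, against 3 in each other db/db list. The db2 list had 7 Per2 peaks, against 1 to 2 in the others. The db1 list had 0 Per3 peaks, against 2 in each of the others. Among lean lists, C5 had 1 Cry1 peak and C6 had 1 Per1 peak, against 0 in the others. The fold of the Clock region from 76226933 was 11.3 in C8, against 7.34 to 7.96 in the other lean lists. Genes with a peak were 6 in C5 against 4 for the coactivator and NAD-linked list, and 12 in C5 against 10 for the circadian rhythm term. For cell markers, C8 had 1 hepatocyte gene and C6 had 1 lymphocyte and NK cell gene, against 0, C7 had 3 cholangiocyte genes against 2, and db2 had 1 Kupffer cell gene against 2.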

How the results depend on the processing

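The lists hold called peaks without reads, so these results depend on where a call is made. The difference of 2.25 genes of the set per mouse kept its direction under every alternative run and shrank to 1.25 with equal numbers of peaks per list and to 0.75 with scores under 50 dropped. Leaving out each list gave 1.58 to 2.67. Regions of the set called in at least 2 more db/db mice numbered 6, but 2 when folds under 4 were dropped, 1 when scores under 50 were dropped and 3 with equal numbers of peaks (3 to 8 leaving out a list). Those in at least 2 more lean mice numbered 5, but 3 and 2 under those 2 limits (3 to 9 leaving out a list). The limit of 2 mice stayed fixed when a list was left out, so the split moved away from the group with fewer lists. Over all genes, the 81 db/db-specific ones became 53 at that fold and 28 at that score (103 to 147 leaving out a list), and the 58 lean-specific ones became 34 at that score (69 to 103). For regions, 217 became 108 and 55 (261 to 454), and 180 became 84 and 60 (216 to 318). The db/db excess thus turned at that score, with 28 against 34 genes and 55 against 60 regions. It also turned with equal numbers of peaks: 58 genes were specific to db/db and 71 to lean mice, as were 154 and 183 regions. The cause was not tested, save that leaving out a list asks for fewer calls. The Clock region from 76304368 turned to -50, against 25 as reported, in percentage points with scores under 50 dropped. The difference of 0.25 Per2 peaks turned to -0.25 with folds under 4 dropped, to -1.08 without db2 and to -0.333 without C8. The Clock difference of -2.75 peaks stayed between -3.5 and -2 throughout. The Clock and Per2 checks were added after seeing the data. No paired analysis was possible because the lean lists carry no replicate number of the labels.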

Other observations

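The annotation of the deposited lists carries a circadian rhythm term, which held 17 genes with a peak beside the clock genes described above. The number of them with a peak averaged 10.2 ± 0.957 in db/db mice and 10.5 ± 1 in lean mice (SD, n = 4 each), with a median difference of 0 mice. Prkaa1 and Prkaa2, the catalytic subunits of the energy-sensing kinase AMPK, which marks Cryptochromes for decay, had different patterns. Prkaa1 was called in no db/db mouse and in all 4 lean mice, the pattern of 0.674% of genes, while Prkaa2 was called in all 8. Cul1 and Skp1a, parts of a ubiquitin ligase complex, stood at 0 and 2 and at 3 and 1 db/db and lean mice. These genes were named after their values had been seen.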
